A study of Homo sapiens with 16 samples.

Results

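The comparison described here set Caco-2 cells from a swing treatment on an intestinal villus-on-chip, under the table code VOS2, against Caco-2 cells from the static chip, under the code NOS1. Its members were chosen by table code, and they are 8 of the 16 libraries of the series, 4 from VOS2 and 4 from NOS1. Caco-2 is an established human colon carcinoma line that forms a polarised, enterocyte-like layer in culture, so every library came from the same tumour line and none from normal mucosa. The chip carries an artificial villus surface that is moved by a magnet. The labels name a physiological and a pathological swing and do not say which of them VOS2 is, so VOS2 is called only a swing treatment throughout. NOS1 was taken as the static control by elimination, because its code belongs to neither a swing table nor the induction of inflammatory bowel disease. The series title names EGR1, and the comparison asks what moving the chip surface changed in the transcriptome. The labels analysed here state no strength, frequency or duration of the swing. Replicates are called biological by the submitters, yet nothing ties them to separate cultures or chips, so p-values measure only the spread between these samples.

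Polyadenylated RNA was sequenced, and reads were counted per gene by the authors. Total counts per library were 15078620 to 18865457 in VOS2 and 17537880 to 20021726 in NOS1. Levels are given as CPM, a gene's counts scaled to a fixed library total, after TMM scaling unless stated otherwise, and fold changes are VOS2 over NOS1 on the log2 scale with a standard error (SE). The cells carried the markers of their label: 15 of 16 Caco-2 and enterocyte markers reached 1 CPM in all 8 libraries, with summed levels of 12600 to 14300 CPM in VOS2 and 10900 to 14500 CPM in NOS1. Markers of other cells were mostly low: 3 of 12 endothelial markers, which were PECAM1, EGFL7 and ESAM, and 3 of 14 leukocyte markers reached 1 CPM everywhere. KDR, FCGR3A and TYROBP had no count in any library. KDR and FCGR3A overlap another gene in the annotation, as does the fibroblast marker THY1, so their 0 counts are uncertain. The endothelial markers summed to 35.5 to 39.7 CPM in VOS2 and 36.1 to 53.8 CPM in NOS1, and the leukocyte markers to 20.2 to 22.2 CPM in VOS2 and 19.9 to 21.2 CPM in NOS1. Of 14 fibroblast markers, 6 reached 1 CPM everywhere, with summed levels of 2080 to 2400 CPM in VOS2 and 1580 to 2380 CPM in NOS1, and THY1 and POSTN had no count. FN1, fibronectin, alone gave 2020 to 2350 CPM of that sum in VOS2 and 1510 to 2320 CPM in NOS1. Both tables were counted over the same gene spans: the implied gene length agreed within 1% for 100% of 10091 genes.

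Immediate early genes are switched on within minutes of a stimulus, without new protein synthesis, and many encode transcription factors. Growth factors, stretch and fluid shear reach them through the ERK kinases and serum response factor (SRF), which binds a DNA element known as the CArG box. EGR1 is a zinc finger transcription factor of this class, and FOS pairs with JUN proteins to form AP-1. In the intestinal epithelium both are known to respond to growth signals, wounding and inflammatory mediators.

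EGR1 and FOS had the smallest p-values of all genes compared, so the stretch before each gene's start is shown. The bases come from the RefSeq promoter table on GRCh38.p14, run 5′ to 3′ on the plus strand and stop before the annotated transcript. Capitals mark CArG boxes, which were searched on both strands in the 250 bases before the RefSeq start.
EGR1, chr5:138465229-138465478: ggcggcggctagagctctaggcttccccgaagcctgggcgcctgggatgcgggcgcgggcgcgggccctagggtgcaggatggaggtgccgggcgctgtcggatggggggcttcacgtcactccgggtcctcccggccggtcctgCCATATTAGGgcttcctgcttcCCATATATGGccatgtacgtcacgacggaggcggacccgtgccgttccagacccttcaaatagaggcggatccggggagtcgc
FOS, chr14:75278578-75278773: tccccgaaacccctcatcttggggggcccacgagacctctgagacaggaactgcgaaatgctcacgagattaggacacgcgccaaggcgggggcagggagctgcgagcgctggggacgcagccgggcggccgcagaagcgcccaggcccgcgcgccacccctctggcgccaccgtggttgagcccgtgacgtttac
EGR1 held 2 CArG boxes, whose first bases lie 105 and 83 bases before the start. FOS held 0 in this window, and bases further upstream were not searched, so a box beyond the window would be missed. A CArG box was present in 407 of 35116 RefSeq promoter windows of the same length, or 1.16%. The EGR site GCGGGGGCG, found in 4.72% of windows, and the cyclic AMP element TGACGTCA, found in 1.65%, were in neither window, and these motifs share no bases with the CArG boxes marked. Such a match describes the letters alone.

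EGR1 was higher in all 4 VOS2 libraries than in any NOS1 library. The gene spans chr5:138465490-138469315 (plus strand, GENCODE v29, GRCh38) and overlaps no other gene. Its level was 396, 365, 391 and 372 CPM in VOS2 replicates 1 to 4, against 255, 263, 258 and 202 CPM in NOS1 replicates 1 to 4. The VOS2 libraries lay close together, and NOS1 replicate 4 was below the other static libraries. Means were 381 ± 15.0 CPM in VOS2 and 244 ± 28.9 CPM in NOS1 (SD, n = 4 each), a ratio of 1.56. The log2 fold change was 0.64 ± 0.09 (SE), with an adjusted p of 0.0812 by edgeR's quasi-likelihood test over all genes. A two-sided exact test by permutation of the libraries gave p = 0.0286, the smallest that 4 against 4 libraries allow. Any gene whose ranges do not overlap reaches this value, as 674 of 14416 genes (4.68%) did, so it adds nothing to that separation.

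FOS followed the same order of groups. The gene spans chr14:75278774-75282230 and had 53.5, 50.4, 61.5 and 64.7 CPM in VOS2 and 37.3, 35.01, 34.1 and 29.9 CPM in NOS1. Again no static library reached the lowest swing library. The log2 fold change was 0.76 ± 0.10 (SE), a ratio of mean CPM of 1.69, with an adjusted p of 0.0812 by edgeR. In both genes NOS1 replicate 4 was the lowest of all 8 libraries, while the highest VOS2 library was replicate 1 for EGR1 and replicate 4 for FOS.

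Across the transcriptome, 0 of 14416 genes tested (0%) passed an adjusted p of 0.05 by edgeR, and the smallest adjusted p was the 0.0812 of EGR1 and FOS. Unadjusted p-values were below 0.05 for 1476 genes (10.2%), of which 538 (3.73%) were higher in VOS2 and 938 (6.51%) lower. The ranges of the 4 VOS2 and 4 NOS1 libraries did not overlap for 674 genes (4.68%), with all VOS2 libraries above in 374 (2.59%) and all below in 300 (2.08%). DESeq2 called 31 genes on the same counts, 16 higher and 15 lower, with adjusted p-values of 1.12e-08 for EGR1 and 2.59e-08 for FOS. Its default filter on mean counts was left on, so it adjusted over fewer genes than the 14416 of edgeR. It also called KLF6, PROM1, MT-ND1 and MT-ND3, which were higher, and ENO1, TSPO and CIB1, which were lower. Limma on log2(FPKM + 1) called 0. Leaving out NOS1 replicate 3 gave 263 calls in edgeR, 12 higher and 251 lower, and EGR1 and FOS then had an adjusted p of 0.0284. The unadjusted edgeR p of EGR1 was then 1.71e-05, against 1.13e-05 with all 8 libraries. Its own evidence was thus no stronger, since the adjusted p also depends on the p-values of the other genes. In what follows no gene passed the edgeR threshold, so values are given gene by gene, and separation of the ranges is read against the 2.59% and 2.08% found over all genes.

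**Figure D1:**
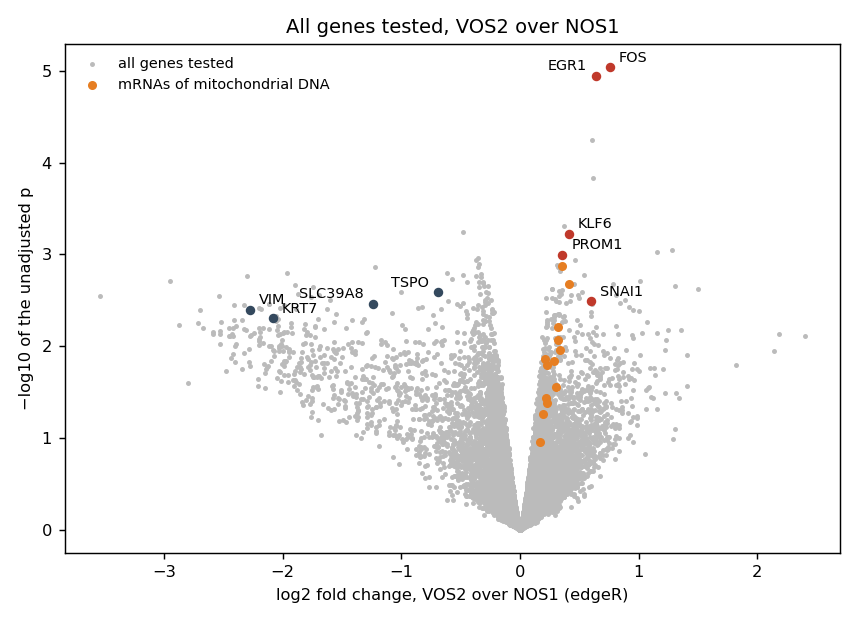
Every gene tested, with the log2 fold change of VOS2 over NOS1 on the x axis and -log10 of the unadjusted edgeR p on the y axis; orange points are the mRNAs of mitochondrial DNA. EGR1 and FOS stand at the top, and the 13 mitochondrial mRNAs all lie to the right of 0.

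The static libraries were less alike than the swing libraries, and this bears on every comparison. The median SD of log2 CPM over genes was 0.145 in VOS2 and 0.182 in NOS1, and the SD exceeded 1 for 66 genes in VOS2 and 430 in NOS1. On the first principal component, which held 50.5% of the variance, VOS2 replicates 1 to 4 stood at -7.1, -28.4, -12.6 and -9.2, and NOS1 replicates 1 to 4 at 54.3, -4.7, -27.3 and 35.1. NOS1 replicates 1 and 4 thus stood apart from the other 6 libraries. KRT7, a keratin of other simple epithelia, shows the same split, with 38.6, 16.3, 36.7 and 40.7 CPM in VOS2 and 258, 60.5, 22.8 and 219 CPM in NOS1. VIM, the intermediate filament of mesenchymal cells, had 4.91 to 14.0 CPM in VOS2 and 90.7, 19.8, 6.94 and 74.1 CPM in NOS1. CD44, a hyaluronan receptor, had 4.55 to 12.1 CPM in VOS2 and 55.9, 10.3, 5.78 and 39.95 CPM in NOS1. Their ranges overlapped between the groups, and all 3 were highest in NOS1 replicates 1 and 4. In bulk RNA, fewer cells of a kind and less RNA per cell cannot be told apart.

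**Figure D2:**
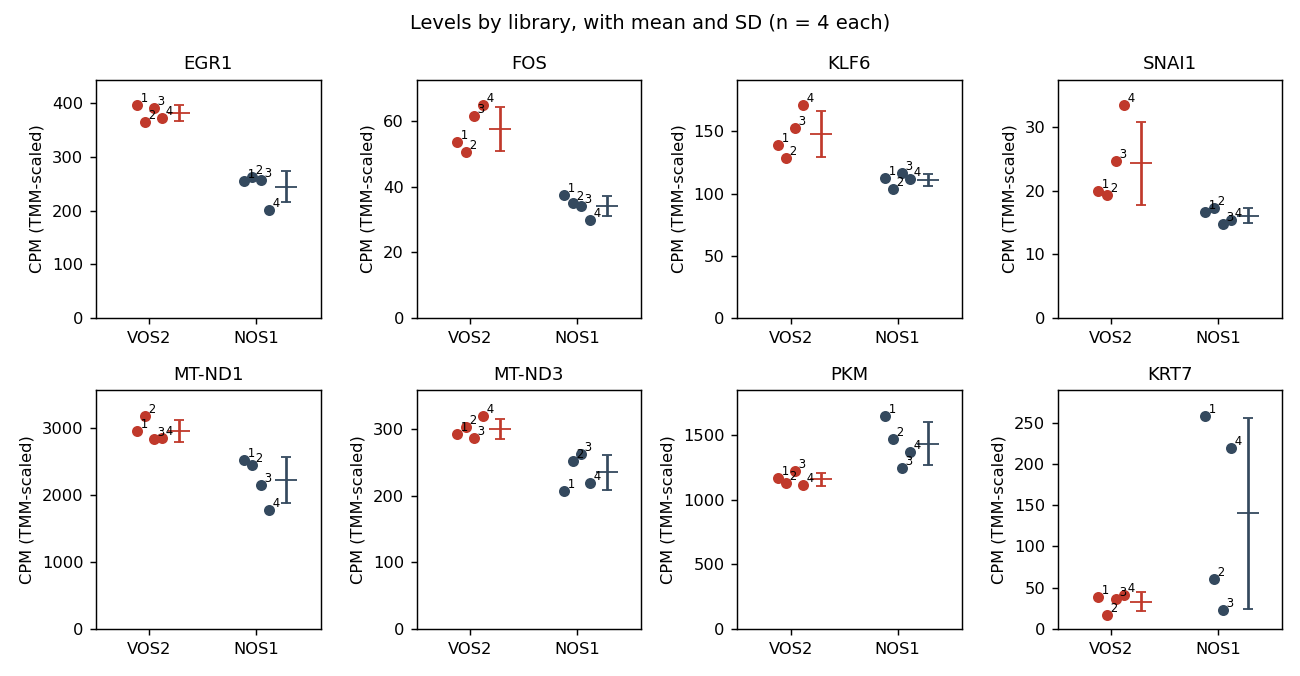
Level of 8 genes in each library in TMM-scaled CPM, with VOS2 on the left and NOS1 on the right of each panel; small digits are replicate numbers, and the bar beside the points is the mean ± SD of 4 libraries. EGR1, FOS, KLF6, SNAI1, MT-ND1 and MT-ND3 are higher in every VOS2 library, PKM is lower in every VOS2 library, and KRT7 is high in NOS1 replicates 1 and 4.

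The immediate early genes, with EGR1 and FOS counted among them, leaned upward in VOS2 without passing the test. Of 30 listed, 23 could be tested, 0 passed, 19 had a fold change above 0 and 4 below, and the median was 0.26, against a median of -0.002 over all genes. Ranges were separated in 3 of the 23, all higher in VOS2, which were EGR1, FOS and KLF6. Beyond EGR1 and FOS, KLF6 was thus the only separated member. KLF6, a zinc finger factor of the Krüppel-like family, had 139, 129, 153 and 171 CPM in VOS2 and 112, 104, 116 and 112 CPM in NOS1. Its log2 fold change was 0.41 ± 0.09 (SE, edgeR adjusted p = 0.415), and no static library reached the lowest swing library.

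Several members were highest in VOS2 replicates 3 and 4. ATF3, a stress-induced bZIP factor, had 41.9, 31.6, 59.9 and 70.3 CPM in VOS2 and 29.2 to 39.3 CPM in NOS1. JUN, the main partner of FOS, had 91.0, 76.1, 116 and 124 CPM in VOS2 and 77.3 to 89.7 CPM in NOS1. ZFP36, which binds AU-rich elements and speeds mRNA decay, had 49.4, 43.8, 58.8 and 59.6 CPM in VOS2 and 38.2 to 44.7 CPM in NOS1. In each of these 3 genes VOS2 replicate 2 lay within or below the static range, so the groups overlapped. FOSL1, another AP-1 subunit, and CCN1, a secreted matrix protein also counted among YAP targets, followed the same order within VOS2: FOSL1 had 42.0, 32.9, 56.7 and 58.2 CPM there and 26.3 to 47.2 CPM in NOS1. CCN1 had 92.7, 64.1, 121 and 139 CPM in VOS2 and 69.3 to 110 CPM in NOS1. The mean level of the 23 genes relative to all 8 libraries was 0.08, -0.22, 0.26 and 0.33 log2 CPM in VOS2 and 0.09, -0.22, -0.23 and -0.09 in NOS1. Without VOS2 replicate 2, 8 of the 23 had all remaining VOS2 libraries above NOS1, against 3.87% of all genes. That library was left out after it was seen to be the lowest of VOS2 for this list. A higher count follows from that choice and is no separate support.

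EGR2, a close relative of EGR1, had 1.56 to 2.05 CPM in VOS2 and 0.553 to 1.63 CPM in NOS1, and the ranges met. MYC had 221 to 253 CPM in VOS2 and 228 to 249.1 CPM in NOS1, a log2 fold change of -0.01 ± 0.07. JUND and IER5 had log2 fold changes of 0.02 and 0.09. KLF2, a factor induced by flow in endothelium, had the lowest fold change of the list, -0.91 ± 0.51, at 0.419 to 2.17 CPM in VOS2 and 1.05 to 4.17 CPM in NOS1. It was highest in NOS1 replicates 1 and 4. Not every immediate early gene could be read: JUNB, FOSB, DUSP1, CCN2 and NR4A3 had 0 counts in all 8 libraries, and EGR3 and IER3 had at most 6. All of these except NR4A3 overlap another gene in the annotation, JUNB with HOOK2 and FOSB with ERCC1. The library protocol marks no strand, and counts of overlapping genes are uncertain for that reason.

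Genes that restrain ERK signalling, which are themselves induced by it, differed little. Of 14 tested, 0 passed, 9 had a fold change above 0 and 5 below, and the median was 0.13. SPRED2, an inhibitor of the Ras and ERK cascade, had 112, 106, 112 and 105 CPM in VOS2 and 89.4, 102, 94.4 and 86.1 CPM in NOS1, with every swing library above. PHLDA1 had 25.9, 22.1, 27.0 and 26.4 CPM in VOS2 and 28.3, 31.1, 28.2 and 33.7 CPM in NOS1, with every swing library below. SPRY4, which dampens receptor tyrosine kinase signalling, had 34.7 to 41.7 CPM in VOS2 and 29.9 to 35.7 CPM in NOS1. DUSP6, the cytoplasmic ERK phosphatase, had a log2 fold change of 0.08 ± 0.09. DUSP4, a nuclear phosphatase of the same family, had 15.2, 7.54, 16.8 and 16.8 CPM in VOS2 and 44.8, 15.8, 9.99 and 39.3 CPM in NOS1, again highest in NOS1 replicates 1 and 4.

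YAP and TAZ are transcriptional coactivators that answer to stretch and cell shape. Of 22 of their targets tested, 0 passed, 11 had a fold change above 0 and 11 below, and the median was 0.01. ANKRD1, a classical target, had 95.9, 87.9, 180 and 232 CPM in VOS2 and 52.1, 72.8, 110 and 91.5 CPM in NOS1. VOS2 replicates 3 and 4 stood above all other libraries, and the other swing libraries lay inside the static range. CRIM1, DLC1 and ASAP1 were higher in every VOS2 library, by log2 fold changes of 0.26, 0.40 and 0.13. CRIM1, a transmembrane protein that binds bone morphogenetic proteins, had 65.4 to 83.2 CPM in VOS2 and 57.9 to 64.0 CPM in NOS1. DLC1, a GTPase-activating protein, had 11.0 to 12.7 CPM in VOS2 and 6.75 to 9.61 CPM in NOS1. Targets on the lower side included IGFBP3, a carrier of insulin-like growth factors, at 3.07, 1.20, 1.43 and 1.90 CPM in VOS2 and 67.5, 4.43, 1.63 and 15.5 CPM in NOS1. AXL, F3 and NT5E were likewise highest in NOS1 replicates 1 and 4, and F3, tissue factor, had 19.4 to 24.3 CPM in VOS2 and 66.1, 19.3, 19.1 and 53.6 CPM in NOS1. Without NOS1 replicates 1 and 4, the median of the targets was 0.18, with 17 of 21 above 0.

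Actin and SRF target genes had a median of -0.09, with 6 of 30 above 0 and 24 below, and 0 passed. Every VOS2 library was below every NOS1 library for TAGLN2, an actin-bundling protein, at 290.4 to 324 CPM in VOS2 and 327 to 358 CPM in NOS1. The same held for MYL12A, a regulatory light chain of non-muscle myosin, at 144 to 155 CPM in VOS2 and 158 to 174 CPM in NOS1. Among 18 mechanosensitive and volume-regulated channels, 9 had a fold change above 0 and 9 below. LRRC8B, a subunit of volume-regulated anion channels, was higher in every VOS2 library, at 2.51 to 3.54 CPM against 1.46 to 2.16 CPM in NOS1.

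The 13 protein-coding mRNAs of mitochondrial DNA, which encode subunits of the respiratory chain and ATP synthase, were the list with most separated genes among the 32. All 13 had a fold change above 0, with a median of 0.28, and 10 of 13 had every VOS2 library above every NOS1 library, against 2.59% of all genes. The 13 come from the same mitochondrial DNA and are not independent replicates. None passed the adjusted threshold (smallest edgeR adjusted p 0.415). MT-ND1, a subunit of complex I, had 2948, 3175, 2831 and 2840 CPM in VOS2 and 2517, 2438, 2143 and 1768 CPM in NOS1, a log2 fold change of 0.41 ± 0.10 (SE). MT-ND3, also of complex I, had 292, 304, 287 and 320.1 CPM in VOS2 and 207, 252, 263 and 219 CPM in NOS1, a log2 fold change of 0.35 ± 0.08 (SE). No static library reached a swing library in either gene. MT-ND2 and MT-ATP8 were also separated, both with a log2 fold change of 0.32. MT-CO1, the catalytic subunit of complex IV, had 16840 to 20110 CPM in VOS2 and 12090 to 16140 CPM in NOS1. In MT-ND5, MT-CO3 and MT-CYB the ranges met.

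The mean level of the 13 genes relative to all 8 libraries was 0.10, 0.26, 0.10 and 0.11 log2 CPM in VOS2, highest in replicate 2, and -0.04, -0.03, -0.09 and -0.40 in NOS1, lowest in replicate 4. Without NOS1 replicate 4 the median log2 fold change of the 13 was 0.19, and without VOS2 replicate 2 it was 0.22. Without NOS1 replicates 1 and 4, all 13 were separated, where 8.47% of all genes were. All genes of mitochondrial DNA took 6.0% to 6.94% of the counts in VOS2 and 4.48% to 5.74% in NOS1. This share is also used as a measure of RNA and cell quality, and its part in the result was not tested. The large ribosomal RNA, MT-RNR2, had 7753 to 9945 CPM in VOS2 and 6516 to 7143 CPM in NOS1, whereas the small one, MT-RNR1, had a log2 fold change of 0.06 ± 0.09. The tRNA gene MT-TC had 103, 106, 86.9 and 87.1 CPM in VOS2 and 72.0, 64.1, 58.9 and 56.7 CPM in NOS1, a log2 fold change of 0.61 ± 0.10 (SE, edgeR adjusted p = 0.275). These 3 RNAs were named after their values had been seen, and MT-TC overlaps MT-TY.

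Nuclear genes of the respiratory chain went the other way by a small amount. Of 27 tested, 0 passed, 2 had a fold change above 0 and 25 below, and the median was -0.06. Cytosolic ribosomal protein genes gave 2 above 0 and 30 below of 32, also with a median of -0.06. In neither of the lists were any ranges separated, and NOS1 replicate 1 was the lowest library in both. The respiratory genes had mean levels of -0.05, -0.06, 0.01 and -0.03 in VOS2 and -0.22, 0.16, 0.16 and 0.03 in NOS1. The ribosomal genes had mean levels of 0.01, -0.04, 0.03 and -0.11 in VOS2 and -0.23, 0.13, 0.09 and 0.12 in NOS1. Without NOS1 replicate 1, every VOS2 library was below for 24 of 32 ribosomal and 9 of 27 respiratory genes, and the medians were -0.15 and -0.14. Of all genes, 4.5% were below in that comparison. Because NOS1 replicate 1 was the lowest library of both lists, higher counts follow from leaving it out and are no separate support.

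**Figure D3:**
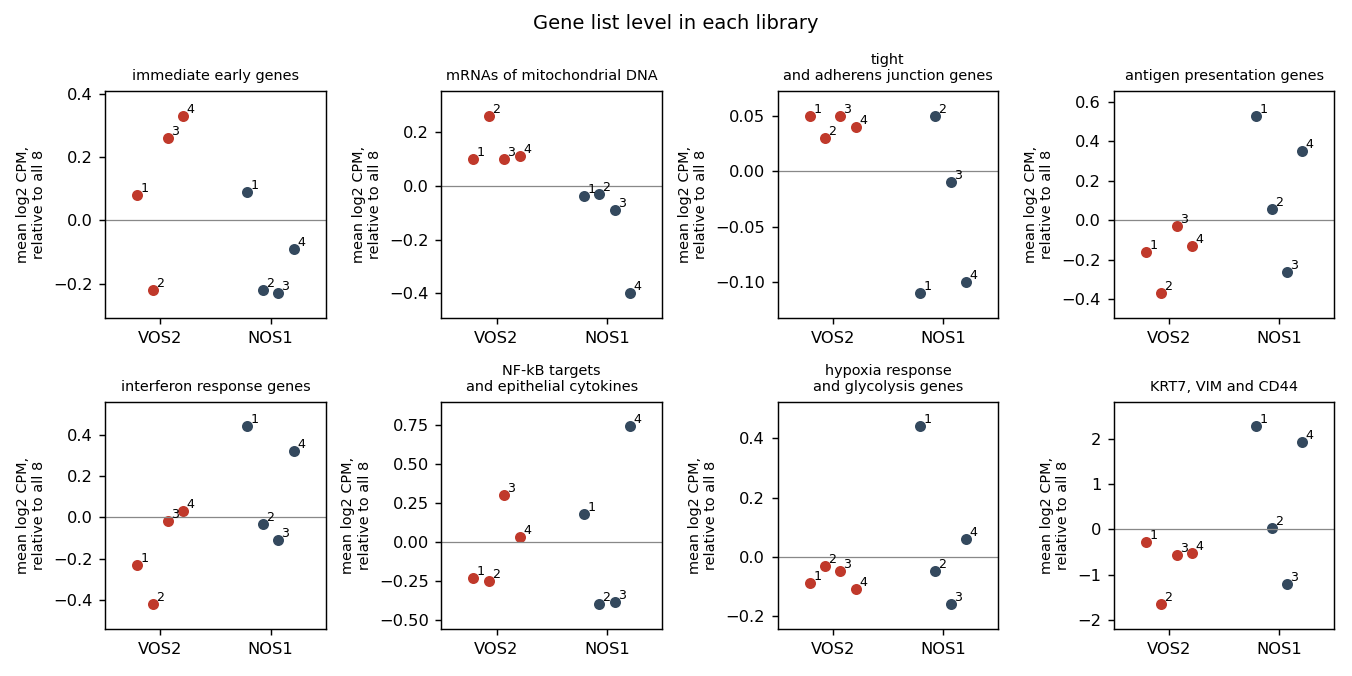
Mean log2 CPM of the genes of 8 lists in each library, relative to the mean over all 8 libraries; VOS2 is on the left and NOS1 on the right of each panel, and digits are replicate numbers. The mitochondrial mRNAs separate the groups, at 0.10 to 0.26 in VOS2 and -0.40 to -0.03 in NOS1, while the antigen presentation, interferon and NF-kB lists are high in NOS1 replicates 1 and 4.

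Junction genes, which seal the epithelium and anchor the cell's polarity, tended to be higher in VOS2. Of 28 tight and adherens junction genes tested, 0 passed, 23 had a fold change above 0 and 5 below, and the median was 0.11. Ranges were separated upward for 4 (14.29%) and downward for 2 (7.14%), against 2.59% and 2.08% of all genes. PARD6B, a polarity protein that binds atypical protein kinase C, had 66.4, 65.6, 65.9 and 83.7 CPM in VOS2 and 54.0, 50.8, 64.0 and 50.8 CPM in NOS1. Its partner PARD3 had 104 to 108 CPM in VOS2 and 93.2 to 101 CPM in NOS1. AFDN, which links nectins to actin, had 139 to 150.1 CPM in VOS2 and 124 to 129 CPM in NOS1. F11R, the junctional adhesion molecule A, had 163.4 to 182 CPM in VOS2 and 134 to 162.7 CPM in NOS1. These differences were small and close to the edge of the static range. CTNNB1, the adherens junction and Wnt protein beta-catenin, was lower in every VOS2 library, at 85.1 to 98.3 CPM against 99.9 to 145 CPM in NOS1. CDH1, the adherens junction cadherin, had 372 to 418 CPM in VOS2 and 330.1 to 412 CPM in NOS1. The list's level was 0.03 to 0.05 in VOS2 and -0.11, 0.05, -0.01 and -0.10 in NOS1, and without NOS1 replicates 1 and 4 its median was 0.03. Of 8 desmosome genes, 6 had a fold change above 0, and PKP4, an armadillo-repeat protein of junctions, was separated upward at 107 to 121 CPM in VOS2 and 92.4 to 103 CPM in NOS1.

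Of 9992 protein-coding genes that averaged 2 or more on the log2 CPM scale, 222 had separated ranges with VOS2 higher and 252 with VOS2 lower. Over all 14416 genes tested, a wider set, the larger side was the other one, with 2.59% separated with VOS2 higher and 2.08% with VOS2 lower. Among these separated protein-coding genes, the 12 with the largest positive fold changes began with FOS and EGR1. They went on with SNAI1, a zinc finger repressor of CDH1. SNAI1 had 19.95, 19.3, 24.6 and 33.4 CPM in VOS2 and 16.6, 17.4, 14.8 and 15.4 CPM in NOS1, a log2 fold change of 0.60 ± 0.16 (SE, edgeR adjusted p = 0.415). Its highest libraries were again VOS2 replicates 3 and 4. The other 9 had log2 fold changes of 0.45 to 0.53 and adjusted p-values of 0.415 to 0.439, and averaged at most 16.0 CPM in VOS2. Among them were CPED1, CPA6, a carboxypeptidase, FAM171B, GRIN2B, an NMDA receptor subunit, ENPP5, EXPH5, a Rab27 effector, XKRX and RHOBTB3. FAM171B had 14.3 to 17.1 CPM in VOS2 and 9.60 to 13.7 CPM in NOS1. EXPH5 had 13.6 to 16.0 CPM in VOS2 and 8.16 to 13.3 CPM in NOS1. PROM1, a pentaspan glycoprotein of cell protrusions also known as CD133, was the stem cell list's separated gene. It had 167, 184, 169 and 170.0 CPM in VOS2 and 131, 133, 155 and 120 CPM in NOS1, a log2 fold change of 0.36 ± 0.08 (SE, edgeR adjusted p = 0.415).

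The 12 lowest were led by SLC39A8, an importer of zinc and manganese, at 6.30, 5.27, 5.08 and 5.45 CPM in VOS2 and 22.9, 7.81, 6.41 and 15.0 CPM in NOS1. Its log2 fold change was -1.24 ± 0.34 (SE, edgeR adjusted p = 0.415). NOS1 replicates 1 and 4 were far above the other libraries. TSPO, a protein of the outer mitochondrial membrane, had 21.1 to 25.0 CPM in VOS2 and 48.5, 30.9, 25.1 and 45.0 CPM in NOS1. CIB1, a calcium-binding partner of integrins, had 42.0 to 49.7 CPM in VOS2 and 89.2, 62.7, 51.6 and 73.9 CPM in NOS1. In both, NOS1 replicate 3 lay just above the highest swing library. A more even static group was seen for PHLDA2, S100A9, ENKD1, RILP and MED11. S100A9, a subunit of calprotectin, had 6.14, 10.1, 8.16 and 7.15 CPM in VOS2 and 11.0, 13.1, 13.1 and 10.8 CPM in NOS1, a log2 fold change of -0.60 ± 0.16. PHLDA2, an imprinted gene with a pleckstrin homology domain, had 3.89 to 7.62 CPM in VOS2 and 8.41 to 12.4 CPM in NOS1. ENKD1 had 6.17 to 7.53 CPM in VOS2 and 8.10 to 11.4 CPM in NOS1. MED11, a subunit of the Mediator complex, had 6.41 to 9.01 CPM in VOS2 and 9.30 to 11.5 CPM in NOS1. The others were NUP62CL, PDZD7, CDKN2C, an inhibitor of CDK4 and CDK6, and AQP3, a channel for water and glycerol, with log2 fold changes of -0.86, -0.64, -0.67 and -0.58. CDKN2C had 8.04 to 8.60 CPM in VOS2 and 21.4, 9.73, 9.57 and 11.6 CPM in NOS1, so that NOS1 replicate 1 stood far from the other static libraries.

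ENO1, PKM and PGK1, enzymes of the later steps of glycolysis, were lower in every VOS2 library. Of 32 genes of the hypoxia response and glycolysis tested, 0 passed, 7 had a fold change above 0 and 25 below, and the median was -0.14. Those 3 enzymes were the separated genes of the list. ENO1 had 1636, 1772, 1747 and 1612 CPM in VOS2 and 2099, 2031, 1886 and 1974 CPM in NOS1, a log2 fold change of -0.24 ± 0.07 (SE, edgeR adjusted p = 0.415). PKM had 1168, 1127, 1223 and 1115 CPM in VOS2 and 1648, 1469, 1247 and 1373 CPM in NOS1. PGK1 had 681 to 758 CPM in VOS2 and 807 to 943 CPM in NOS1. Static levels were thus higher in all libraries for these enzymes, and by little in NOS1 replicate 3 for PKM. LDHA, which makes lactate, had 662 to 833 CPM in VOS2 and 829 to 1034 CPM in NOS1, and the ranges met. The lactate exporter SLC16A3 had 36.0 to 45.7 CPM in VOS2 and 134, 52.9, 37.0 and 77.0 CPM in NOS1. Hexokinase HK1 had 9.34 to 15.1 CPM in VOS2 and 51.3, 15.7, 7.15 and 32.9 CPM in NOS1. The glucose transporter SLC2A3 had 500.3 to 722 CPM in VOS2 and 394 to 605 CPM in NOS1, a log2 fold change of 0.30 ± 0.15. NOS1 replicate 1 decided the list's median, which was 0.00 without it, with 17 above 0 and 15 below. ALDOA and ALDOC could not be read, with at most 2 counts in any library, and both overlap another gene.

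Genes of antigen presentation and the interferon response were mostly lower in VOS2, and those with the largest differences were highest in NOS1 replicates 1 and 4. Of 17 antigen presentation genes tested, 0 passed, 4 had a fold change above 0 and 13 below, and the median was -0.09. Of 20 interferon response genes, 0 passed, 6 were above 0 and 14 below, and the median was -0.13. No gene of either list had separated ranges. PSMB8, a subunit of the immunoproteasome, had 4.02, 1.98, 3.37 and 2.89 CPM in VOS2 and 24.8, 6.64, 2.21 and 19.5 CPM in NOS1. BST2, the antiviral protein tetherin, had 9.42, 4.25, 7.93 and 8.92 CPM in VOS2 and 58.1, 16.7, 5.84 and 40.3 CPM in NOS1. HLA-B had 1.496 to 2.59 CPM in VOS2 and 19.3, 4.66, 1.419 and 10.3 CPM in NOS1. In these 3 genes NOS1 replicate 3 lay within or below the swing range. B2M, the light chain of class I molecules, differed less between static libraries, with 331, 314, 367 and 382 CPM in VOS2 and 497, 377, 393 and 499 CPM in NOS1. Without NOS1 replicates 1 and 4 the medians were -0.09 for antigen presentation and -0.03 for the interferon response. KRT7, VIM and CD44 were also highest in NOS1 replicates 1 and 4, and with their level as a covariate the medians were -0.09 for antigen presentation, with 6 above 0 and 11 below, and -0.02 for the interferon response, with 8 above and 12 below.

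Inflammatory and defence genes differed widely between libraries of the same group. Of 29 NF-kB targets and epithelial cytokines tested, 0 passed, 8 had a fold change above 0 and 21 below, and the median was -0.09. The list's level was -0.23, -0.25, 0.30 and 0.03 in VOS2 and 0.18, -0.40, -0.39 and 0.74 in NOS1. CCL20, which attracts lymphocytes through CCR6, had 3.92, 9.70, 11.4 and 4.59 CPM in VOS2 and 4.40, 3.26, 3.68 and 32.7 CPM in NOS1. CXCL8, a neutrophil attractant, had 2.65, 3.65, 5.02 and 6.36 CPM in VOS2 and 2.64, 0.932, 2.52 and 10.3 CPM in NOS1. NOS1 replicate 4 was the highest library for both. NFKBIZ, a nuclear regulator of NF-kB, had 113 to 125 CPM in VOS2 and 78.6 to 115 CPM in NOS1. With the level of KRT7, VIM and CD44 as a covariate, the NF-kB median was 0.37, with 24 above 0 and 5 below, and without NOS1 replicate 4 it was 0.04, so in both cases on the other side of 0. Of 14 mucosal defence genes tested, 2 had a fold change above 0 and 12 below, with a median of -0.33. Their level was -0.28, -0.14, 0.10 and -0.28 in VOS2 and 0.40, -0.12, -0.30 and 0.62 in NOS1, and without NOS1 replicates 1 and 4 the median was -0.03, with 7 above 0 and 7 below. LCN2, the siderophore-binding lipocalin, had 0.635 to 1.496 CPM in VOS2 and 3.43, 0.524, 0.736 and 5.88 CPM in NOS1.

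**Figure D4:**
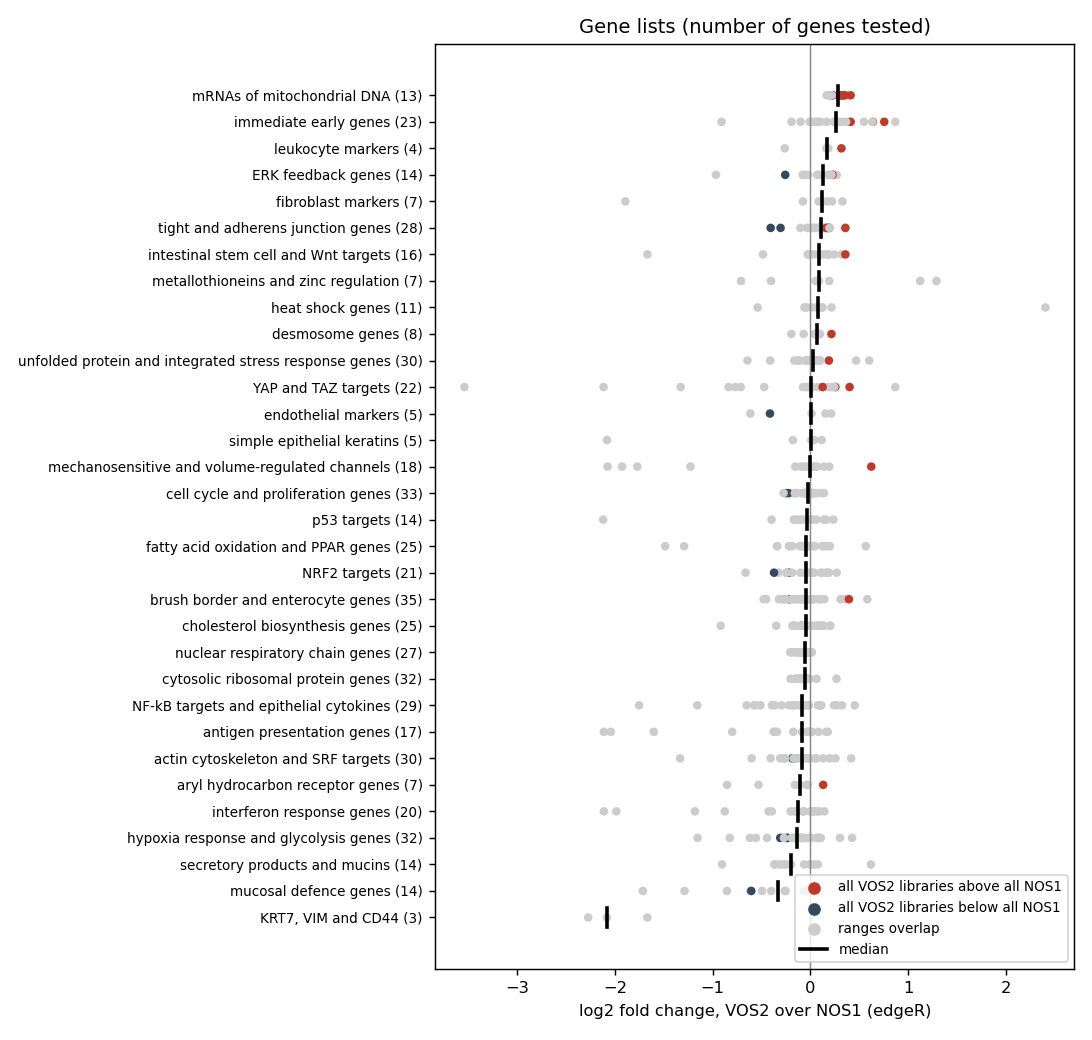
Log2 fold change of VOS2 over NOS1 for every tested gene of 32 lists, ordered by the list's median (black bar), with the number of genes tested in brackets; red marks genes with all VOS2 libraries above all NOS1 libraries and dark blue the reverse. The mitochondrial and immediate early lists have medians of 0.28 and 0.26, and the mucosal defence list and the genes KRT7, VIM and CD44 lie lowest.

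VOS2 replicates 3 and 4 differed from replicates 1 and 2 in stress genes. CRYAB, a small heat shock protein, had the highest fold change of all genes tested, 2.41 ± 0.75 (SE, edgeR adjusted p = 0.415). It had 1.59, 0.958, 8.44 and 17.9 CPM in VOS2 and 0.783 to 1.66 CPM in NOS1, so only replicates 3 and 4 stood above the static range. MT2A, a metallothionein that binds zinc and copper, had 6.03, 6.82, 33.3 and 93.7 CPM in VOS2 and 20.99, 8.51, 7.15 and 20 CPM in NOS1. MT1F had 2.33, 3.65, 7.24 and 16.3 CPM in VOS2 and 2.81 to 3.79 CPM in NOS1. DNAJB1, a co-chaperone, had 166, 155, 232 and 275 CPM in VOS2 and 174 to 181 CPM in NOS1. Of 11 heat shock genes tested, 8 were above 0 and 3 below with a median of 0.08, and of 7 metallothionein and zinc genes, 5 were above and 2 below with a median of 0.09. Heat shock genes stood at -0.11, -0.24, 0.23 and 0.41 in VOS2 and at -0.13 to -0.01 in NOS1.

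Brush border and enterocyte genes gave 13 above 0 and 22 below of 35, with a median of -0.05. ESPN, an actin bundler of microvilli, was lower in every VOS2 library at 26.7 to 31.1 CPM against 31.8 to 37.3 CPM in NOS1. ENPEP, aminopeptidase A, was higher in every VOS2 library at 0.838 to 1.22 CPM against 0.583 to 0.804 CPM, with an unadjusted edgeR p of 0.17. That is 1 of 35 genes in each direction, or 2.86%, near the 2.59% and 2.08% of all genes. Secretory products and mucins had 4 of 14 above 0 and a median of -0.20, and stem cell and Wnt target genes had 11 of 16 above 0 and a median of 0.09. Cell cycle genes had 12 above 0 and 21 below of 33 with a median of -0.02, and 2 of them were lower in every VOS2 library. These were RRM1, a subunit of ribonucleotide reductase, at 224 to 239 CPM in VOS2 and 244 to 296 CPM in NOS1, and MCM7, of the replicative helicase, at 319.8 to 366 CPM in VOS2 and 372 to 411 CPM in NOS1. Targets of p53 were split 7 and 7. NRF2 target genes had 8 of 21 above 0, and AKR1C3, an aldo-keto reductase, and TXN, thioredoxin, were lower in every VOS2 library, AKR1C3 at 79.4 to 88.8 CPM against 93.4 to 138 CPM in NOS1. Cholesterol synthesis genes had 11 of 25 above 0. ACAT2, their only separated member (4.0%), was lower in every VOS2 library by a log2 fold change of -0.09, with an unadjusted edgeR p of 0.155.

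Fatty acid oxidation and PPAR genes had 9 of 25 above 0 with a median of -0.04, and the unfolded protein and integrated stress response genes had 18 of 30 above 0 with a median of 0.03. SEL1L, of the endoplasmic reticulum degradation machinery, was higher in every VOS2 library at 122 to 138 CPM against 107 to 119 CPM in NOS1. It was the only separated gene of the 30 (3.33%, against 2.59% of all genes). Simple epithelial keratins had 3 of 5 above 0. Aryl hydrocarbon receptor genes had 1 of 7 above 0, TIPARP, which was separated at 73.8 to 82.3 CPM in VOS2 and 63.8 to 73.2 CPM in NOS1. None of these lists had a gene past the adjusted threshold. Fibroblast, endothelial and leukocyte markers had medians of 0.12, 0.01 and 0.17 over the 7, 5 and 4 that could be tested, with EGFL7 lower and ITGAM higher in every VOS2 library.

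Fold changes also differed with the length of the gene. Over 9992 protein-coding genes that averaged 2 or more on the log2 CPM scale, divided into 5 equal groups by genomic span, the median log2 fold change was -0.058, -0.03, -0.013, 0.011 and 0.039 from the shortest to the longest group. Median spans of those groups were 7.0, 18.5, 36.5, 69.1 and 165 kb. In the shortest group, of 1999 genes, 30 had all VOS2 libraries above and 96 below. In the longest group, also of 1999 genes, 90 were above and 17 below. Across genes, which are not independent replicates, Spearman's rank correlation between span and fold change was 0.23 (9992 genes), and it was 0.19 among the 3402 genes that overlap no other. The libraries did not divide cleanly by group, since the median of the shortest genes relative to all 8 libraries was -0.037, -0.099, 0.049 and -0.032 in VOS2 and -0.040, 0.119, 0.028 and 0.017 in NOS1. VOS2 replicate 3 and NOS1 replicate 1 lay on the side of the other group. Among the 12 highest genes, GRIN2B and CPED1 are long genes, at chr12:13437942-13981957 and chr7:120988677-121297444, whereas EGR1 and FOS are short. The shifts were small beside the log2 fold changes of EGR1 and FOS.

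**Figure D5:**
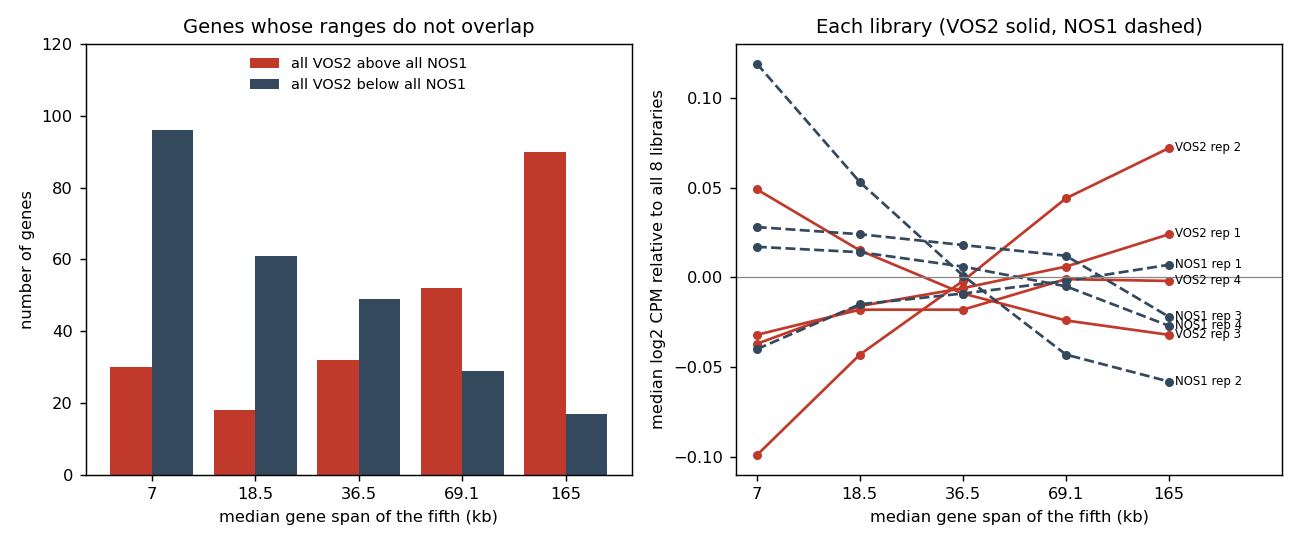
Left, number of genes whose VOS2 and NOS1 ranges do not overlap, in 5 groups of protein-coding genes by genomic span (x axis, median span in kb), with genes higher in VOS2 in red and lower in dark blue. Right, median log2 CPM of each group in each library relative to all 8. Genes higher in VOS2 number 30 of 1999 in the shortest group and 90 of 1999 in the longest, and the libraries of both tables cross.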

How the data were processed

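The authors deposited whole-number counts per gene and FPKM values, which correct counts for library size and gene length, in separate tables per treatment. Per the submitters' processing notes, the build was hg38 and the tools named were STAR 2.7.11a, fastp 0.23.4, featureCounts 2.0.6, DESeq2 1.42.0 and FastQC 0.12.1; neither settings nor annotation are stated in the labels. VOS2 and NOS1 each held 61228 gene rows and 4 libraries, joined on gene symbol. The ratio of counts to FPKM gave a length equal to the whole gene span in GENCODE v29, within 1%, for 84.9% of 10546 genes. The table VOS1 had a shorter length for 97.7% of 9975 genes and stayed out of the main model.

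Counts of the 8 libraries were fitted with edgeR 4.0.16 in R 4.3.3 by the quasi-likelihood test, with TMM scaling, the default filter by group (14416 genes kept), no block and Benjamini-Hochberg adjustment at 0.05. Log2 CPM used a prior count of 2. FPKM entered only as log2(FPKM + 1) and log2(FPKM + 0.1) in limma 3.58.1. The script was tested on simulated data. Gene spans and overlaps came from GENCODE v29, matched by symbol for 56945 rows, and promoters from RefSeq on GRCh38.p14.

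Named genes were EGR1, the 12 higher and 12 lower protein-coding genes of largest fold change that had separated ranges and averaged 2 or more on the log2 CPM scale, up to 4 separated members of each of 32 lists, and KRT7, VIM and CD44. A gene named by this rule is left out of the text. Other list members are named as examples chosen after their values were seen. The comparison, its lists, the rule and the choice of an 8-library model were made with earlier results of these data known. Alternatives numbered 22. Groups by gene span and list counts without VOS2 replicate 2 were added after seeing the data.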

Additional observations from a re-analysis of the deposited data

Results flagged for a closer look

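Of 182 groups of 4 libraries tested, 16 held a library far from the other 3 by Dixon's criterion, which chance gives in about 1 group in 20. The values below are TMM-scaled CPM for genes and mean log2 CPM relative to all 8 libraries for lists.

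Among genes of the report, VOS2 replicate 2 was low for KRT7 at 16.3 CPM, AQP3 at 24.2 CPM and RILP at 5.09 CPM. VOS2 replicate 4 was high for PARD6B at 83.7 CPM, and low for CTNNB1 at 85.1 CPM and PARD3 at 104 CPM. In the static group, replicate 4 was low for EGR1 at 201 CPM and MT-ND2 at 2030 CPM. NOS1 replicate 1 was high for CDKN2C at 21.4 CPM and ACAT2 at 161 CPM, and low for DLC1 at 6.75 CPM.

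Among lists, VOS2 replicate 4 was low for cell cycle and proliferation genes at -0.12. VOS2 replicate 2 was high for the mRNAs of mitochondrial DNA at 0.26 and low for endothelial markers at -0.13. NOS1 replicate 4 was low for the mRNAs of mitochondrial DNA at -0.40, and NOS1 replicate 1 was low for cytosolic ribosomal protein genes at -0.23. Without NOS1 replicate 4 the log2 fold change of EGR1 was 0.56.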

How the results depend on the processing

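The count of genes past the threshold was 0 by edgeR and stayed 0 with RLE size factors, library size alone, TMM without mitochondrial genes, a minimum of 1 CPM in 4 libraries, limma on FPKM with either pseudocount, models of 12 or 16 libraries, and the level of KRT7, VIM and CD44 as a covariate. It was 106 without a filter on low counts (26341 genes), 31 with DESeq2, 1 without NOS1 replicates 1 and 4, and 2 among 4871 genes that overlap no other. Leaving out each library in turn gave 0 to 263, the highest being without NOS1 replicate 3 and all others 0. Libraries with the same replicate number deviated from their group means with correlations of 0.20, 0.12, -0.08 and 0.14 for numbers 1 to 4, and the highest correlations with another number were 0.14, 0.36, 0.09 and 0.12. Number 3 had a negative correlation, and numbers 2 and 3 correlated better with another number, so the numbers were not taken as pairs. With the replicate number as a block the count was 0, with 1205 unadjusted p-values below 0.05, and EGR1 in VOS2 against NOS1 had a log2 fold change of 0.65 (edgeR adjusted p = 0.093); the block changed no call.

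EGR1 in VOS2 against NOS1 was positive in every alternative. It passed without a filter at 0.63 (adjusted p = 0.00362), with DESeq2 at 0.64, without NOS1 replicates 1 and 4 at 0.55 (adjusted p = 0.027), among genes that overlap no other at 0.64 (adjusted p = 0.0344), and without NOS1 replicate 3 at 0.67. In the last 2 of these the unadjusted edgeR p was 1.36e-05 and 1.71e-05, not below the 1.13e-05 of the main model. Leaving out single libraries gave log2 fold changes of 0.56 to 0.68 for EGR1, with adjusted p-values of 0.0284 to 0.458. The models of 12 and 16 libraries gave adjusted p-values of 0.392 and 0.664. The log2 fold change of CD44 changed sign, to 0.25 with KRT7, VIM and CD44 as a covariate, which holds CD44 itself, and to 0.15 without NOS1 replicates 1 and 4. The cause of the other differences was not tested. Depth limits genes under about 1 CPM, and counting over whole gene spans leaves genes that overlap a neighbour uncertain.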
